A study of Homo sapiens with 4 samples.

Results

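The 36 genes described here are 20 enzymes and transporters of glycolysis and 16 genes of the hypoxia response, taken by symbol from the 33538 genes counted in each library. All 36 were found once each in the gene list of every library. The glycolysis group runs from glucose uptake (SLC2A1) over hexokinase, phosphofructokinase and aldolase to pyruvate kinase (PKM), lactate dehydrogenase (LDHA, LDHB) and lactate export (SLC16A3). The hypoxia response group holds mitochondrial, collagen-modifying, oxygen-sensing and secreted targets of hypoxia-inducible factor, together with HIF1A, the gene of that factor's alpha subunit.

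Single-cell RNA sequencing was performed on LNCaP, an androgen-sensitive human prostate cancer cell line, and on its derivatives. The 4 groups were LNCaP in 0.1% DMSO for 48 h, LNCaP-ENZ48 in 10 µM enzalutamide (ENZ, an androgen receptor antagonist) for 48 h, and the ENZ-resistant lines RES-A and RES-B. RES-A was obtained by passaging LNCaP in increasing ENZ, and RES-B by a longer, continuous treatment with the antiandrogen RD-162. Both resistant lines were kept in 10 µM ENZ. All cells grew in medium with 2.5 g/L glucose and 1 mM pyruvate and were sorted as living cells, and no oxygen level is named in the labels. Each group is 1 library of 1 culture, so differences between groups have no replicate check and no test between groups was possible. Line, selecting drug, its duration, culture and library cannot be told apart.

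Hypoxia-inducible factor is made continuously and, while oxygen is present, is hydroxylated by the EGLN prolyl hydroxylases and degraded. When oxygen is short the factor is stabilised, binds a core motif near its targets, and raises genes for glucose use, for the shutdown and removal of mitochondria, for matrix modification and for vessel growth. Many glycolytic enzymes are targets as well, whereas LDHB, the lactate dehydrogenase isozyme favoured in oxidative tissue, is usually not counted among them, and prostate tumour cells are known to express glycolytic genes also with oxygen present.

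After the study's own cell limits, 1782 cells remained in LNCaP, 4315 after 48 h of ENZ, and 4569 and 4061 in RES-A and RES-B. Where 4 values follow each other, they stand in this order of the libraries. The summed unique molecular identifiers (UMIs, 1 per captured transcript) were between 50208831 and 60838227 per library. Cells of LNCaP were deeper, with a median of 27079.5 UMIs against 12138 to 13676 in the other libraries, and single-cell measures were therefore taken after each cell was thinned to 5000 UMIs. All 10 luminal LNCaP markers were detected in every library, and the summed level of the markers of basal, fibroblast, endothelial and immune cells reached at most 3.21 CPM (counts per 1e6 UMIs) for any one of these types. Between 2 and 12 barcodes were shared by any pair of libraries.

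To place the members in their sequence context, RefSeq promoters were read for the 250 bases before the start of 32 members. The core motif ACGTG, searched on both strands, was found in 7 of 12 hypoxia response members with a promoter and in 7 of 20 glycolysis members, against 18.7% of 27305 promoters of all genes and 25.5% of 6599 promoters of genes at 10 CPM or more in at least 1 library. With GCGTG added, 9 of 12, 11 of 20, 43.1% and 60.7% held a match. The palindrome CACGTG counts as 1 match on each strand. The promoters below are shown because LDHA, PGK1 and BNIP3 were among the members that varied most together from cell to cell, PLOD2 differed most between the resistant lines, and LDHB is the isozyme of LDHA that did not follow the others. Capitals mark matches to ACGTG or GCGTG on either strand, and a match is a string of letters, not a bound site.
LDHA, GRCh38.p14 chr11:18394313-18394562, plus strand: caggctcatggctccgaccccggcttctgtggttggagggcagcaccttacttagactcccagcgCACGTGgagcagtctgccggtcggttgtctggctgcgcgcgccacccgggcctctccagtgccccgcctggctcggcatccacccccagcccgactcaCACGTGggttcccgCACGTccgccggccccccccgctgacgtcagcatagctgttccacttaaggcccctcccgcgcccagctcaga
PGK1, GRCh38.p14 chrX:78103998-78104247, plus strand: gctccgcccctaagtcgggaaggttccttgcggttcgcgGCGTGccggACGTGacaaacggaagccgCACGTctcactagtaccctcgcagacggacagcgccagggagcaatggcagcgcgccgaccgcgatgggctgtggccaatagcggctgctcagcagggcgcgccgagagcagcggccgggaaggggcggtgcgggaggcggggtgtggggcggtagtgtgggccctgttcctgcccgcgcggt
BNIP3, GRCh38.p14 chr10:131981924-131982173, minus strand: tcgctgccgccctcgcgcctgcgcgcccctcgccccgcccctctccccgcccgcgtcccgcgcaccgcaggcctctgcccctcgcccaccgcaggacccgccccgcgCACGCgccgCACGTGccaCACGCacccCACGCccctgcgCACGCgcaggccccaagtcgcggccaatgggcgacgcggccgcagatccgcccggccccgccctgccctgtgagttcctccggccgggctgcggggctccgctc
PLOD2, GRCh38.p14 chr3:146161185-146161434, minus strand: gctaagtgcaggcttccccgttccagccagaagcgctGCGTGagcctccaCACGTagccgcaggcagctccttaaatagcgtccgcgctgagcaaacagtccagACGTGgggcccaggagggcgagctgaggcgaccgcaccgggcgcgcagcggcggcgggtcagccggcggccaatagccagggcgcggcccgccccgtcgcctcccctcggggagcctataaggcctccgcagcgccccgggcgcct
LDHB, GRCh38.p14 chr12:21657843-21658092, minus strand: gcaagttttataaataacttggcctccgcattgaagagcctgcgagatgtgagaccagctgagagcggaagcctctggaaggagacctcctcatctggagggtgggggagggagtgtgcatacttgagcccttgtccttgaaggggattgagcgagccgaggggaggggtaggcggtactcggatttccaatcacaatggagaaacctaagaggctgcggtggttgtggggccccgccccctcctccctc
LDHA held 5 matches to ACGTG, which lie at 185, 184, 87, 86 and 73 bases before its start. LDHB held no match to either motif. BNIP3 held 2 matches to ACGTG and 4 to GCGTG within one stretch from 143 to 104 bases before its start. These promoters were picked by the members' behaviour and do not stand for all members. PFKP, PKM and PDK1 held no match to either motif, yet were higher by 1.5-fold or more in the high-scoring cells of all 4 libraries, as described below. HIF1A held 1 match to GCGTG and passed 1.5-fold there only in LNCaP-ENZ48. A link between motifs and levels was not tested.

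In LNCaP the 20 glycolysis members summed to 5738 CPM (95% Poisson interval 5717 to 5759) and the 16 hypoxia response members to 782 CPM (774 to 790). LNCaP-ENZ48 had 6438 and 832 CPM, RES-A 9175 and 610 CPM, and RES-B 8626 and 1194 CPM. The glycolysis sum was thus higher in both resistant lines, while the hypoxia response sum was lowest in RES-A and highest in RES-B. The sums weigh the most abundant members most. GAPDH alone had 2771, 3267, 5086 and 4069 CPM, LDHB 311, 315, 1009 and 538 CPM, and BNIP3 403, 421, 301 and 604 CPM. All intervals here cover counting error only.

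**Figure D1:**
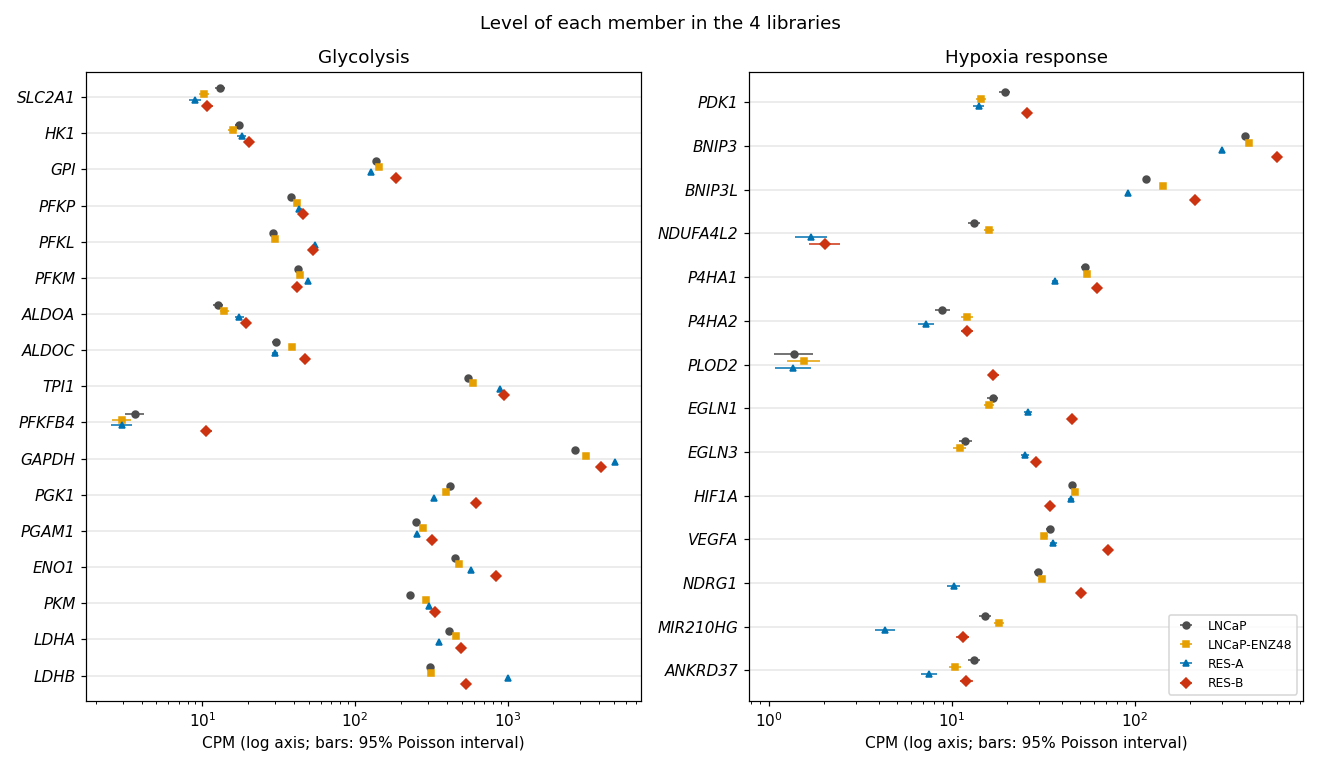
Level of each member that reached 10 CPM in at least 1 library, on a log axis in CPM, with 95% Poisson intervals for counting error and 1 symbol per library. GAPDH is highest of all members, at 2771 to 5086 CPM, LDHB of RES-A stands at 1009 CPM apart from the other libraries, and PLOD2 and PFKFB4 of RES-B and NDUFA4L2 of both resistant lines stand apart by the widest gaps.

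Of the 36 members, 31 reached 10 CPM in at least 1 library. The other 5 were HK2 (3.52 to 7.51 CPM), PFKFB3 (4.0 to 7.23 CPM), SLC16A3 (0.114 to 0.896 CPM), CA9 (0.0199 to 2.82 CPM) and ADM (0.0698 to 1.5 CPM). CA9, the carbonic anhydrase used as a marker of tumour hypoxia, had 1, 19, 51 and 148 UMIs in the 4 libraries. Its log2 ratio of RES-B to LNCaP was 7.14 with a counting interval of 4.64 to 12.46, since it rests on that 1 UMI. SLC16A3, the lactate exporter MCT4, had 45, 43, 12 and 6 UMIs in the same order, so that the exporter usually linked to glycolytic tumours was near the limit of detection in all 4 libraries.

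To determine whether 48 h of ENZ moved these genes, LNCaP-ENZ48 was compared with LNCaP. A gene was called when its CPM differed by 1.5-fold or more and it reached 10 CPM in either library. None of the 29 members at this level was called higher, against 0.927% of 7554 genes, and none was called lower, against 3.73%. The median log2 ratio was 0.10 over 16 glycolysis members and 0.05 over 13 hypoxia response members, beside -0.08 over all genes. With TMM, which changes every log2 ratio by 0.10, 1.47% of genes were called higher and 2.42% lower, and with size factors 1.55% and 2.36%. The members farthest from 0 were P4HA2 (0.45, 8.86 to 12.1 CPM) and PDK1 (-0.43, 19.4 to 14.4 CPM). PDK1 is the kinase that closes the pyruvate dehydrogenase complex, and its share of the UMIs of the 4 PDK genes went from 34.8% to 25.7%.

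In RES-A, 6 of 28 members were called higher than in LNCaP and 4 lower, where 12.9% and 12.7% of 7975 genes were called. The glycolysis members had a median log2 ratio of 0.20, and the hypoxia response members of -0.44, beside 0.02 over all genes. The 4 glycolysis members called higher were PFKL, TPI1, GAPDH and LDHB, and the 4 members called lower all belonged to the hypoxia response group. Counted by group, 4 of 16 glycolysis members were higher and 0 lower, and 2 of 12 hypoxia response members were higher and 4 lower. Over all members 21.4% were higher and 14.3% lower, the latter near the share over all genes. The groups are small, and the split of the calls between them was not tested.

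LDHB had 311, 315, 1009 and 538 CPM. It was level in both LNCaP libraries, 3.24-fold higher in RES-A (log2 ratio 1.70, interval 1.67 to 1.72) and 1.73-fold higher in RES-B. GAPDH, the glyceraldehyde phosphate dehydrogenase, had 2771, 3267, 5086 and 4069 CPM in the same order and was 1.84-fold higher in RES-A. TPI1, the isomerase that feeds GAPDH, had 554, 596, 897 and 949 CPM and was higher in both resistant lines than in either LNCaP library. PFKL, the liver isozyme of phosphofructokinase, had 29.2, 29.9, 54.7 and 53.1 CPM. PGK1, PGAM1 and LDHA, which act beside or after these enzymes, did not share the difference in RES-A, with log2 ratios of -0.36, 0.03 and -0.22.

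The hypoxia response members lower in RES-A were NDUFA4L2, NDRG1, MIR210HG and ANKRD37. NDUFA4L2, which replaces a subunit of the respiratory chain under hypoxia, had 13.2, 16, 1.71 and 2.04 CPM. It was low in both resistant lines, with log2 ratios to LNCaP of -2.95 (RES-A) and -2.70 (RES-B). MIR210HG, the host transcript of the hypoxia-induced microRNA miR-210, had 15.2, 18.2, 4.34 and 11.5 CPM. ANKRD37, an ankyrin-repeat gene known as a target of the factor, had 13.3, 10.4, 7.52 and 12 CPM. The lowest value of each of these 2 genes was in RES-A.

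EGLN1 and EGLN3, prolyl hydroxylases that mark HIF1A for degradation, were the hypoxia response members higher in RES-A. EGLN1 had 16.8, 15.9, 26.2 and 45.5 CPM, and EGLN3 had 11.9, 11.0, 25.3 and 28.9 CPM. Both were higher in each resistant line than in either LNCaP library. HIF1A itself had 45.7, 47.2, 45.1 and 34.3 CPM, so its transcript was lowest in RES-B, with a log2 ratio to LNCaP of -0.41 (interval -0.50 to -0.32). EPAS1, the other alpha subunit, held at most 2.01% of the UMIs of the pair in any library.

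In RES-B, 13 of 31 members were called higher than in LNCaP and 1 lower, where 15.6% and 9.11% of 8090 genes were called. The median log2 ratio was 0.55 over 17 glycolysis members and 0.52 over 14 hypoxia response members, beside 0.12 over all genes. Of the glycolysis members 7 were higher (PFKL, ALDOA, ALDOC, TPI1, PFKFB4, ENO1 and LDHB), and of the hypoxia response members 6 were higher (BNIP3L, PLOD2, EGLN1, EGLN3, VEGFA and NDRG1) and 1 was lower (NDUFA4L2). The call depends on the fold chosen, since BNIP3 (1.498-fold), PGK1 (1.49-fold) and GAPDH (1.47-fold) lay just under 1.5-fold and ALDOA (1.52-fold) just over it. The count also moved with the scaling. With TMM and with median-of-ratios size factors, which change every log2 ratio of RES-B to LNCaP by -0.11 and -0.10, 4 glycolysis members were higher, and 11.6% and 11.7% of all genes were called higher and 12.3% and 12% lower.

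PLOD2, a lysyl hydroxylase of collagen, had 1.37, 1.56, 1.36 and 16.9 CPM. It was 12.3-fold higher in RES-B than in LNCaP (log2 ratio 3.62, interval 3.27 to 4.0), and the other 3 libraries lay close together. PFKFB4, which sets the level of the activator of phosphofructokinase, had 3.60, 2.96, 2.96 and 10.6 CPM. VEGFA, the vascular growth factor, had 34.3, 32.2, 36 and 71.4 CPM. As with PLOD2, the higher level of PFKFB4 and VEGFA was in RES-B, and the other 3 libraries lay close together.

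BNIP3 and BNIP3L are mitochondrial proteins that mark the organelle for removal. BNIP3 had 403, 421, 301 and 604 CPM, and BNIP3L had 115, 144, 92.4 and 213 CPM. ENO1, the enolase, had 453, 482, 574 and 843 CPM. Both BNIP genes had their lowest level in RES-A and their highest in RES-B, whereas ENO1 was above the LNCaP libraries in both resistant lines.

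RES-B was then set against RES-A, to determine where the resistant lines differ. Of 30 members 14 were called higher in RES-B and 1 lower, where 12.9% and 6.71% of 7954 genes were called. The difference was concentrated by count in the hypoxia response group, where 11 of 13 members were higher in RES-B, against 3 of 17 glycolysis members (ALDOC, PFKFB4 and PGK1), and the medians were 0.88 and 0.16 on the log2 scale beside 0.09 over all genes. The glycolysis count depended on the processing, being 1 of 16 with TMM and with size factors, where ALDOC (0.58) fell just short of 1.5-fold and PFKFB4 (1.79 and 1.78) of 10 CPM, and 5 of 17 in cells called G1 and with the mean of single-cell CPM. The 11 members were PDK1, BNIP3, BNIP3L, P4HA1, P4HA2, PLOD2, EGLN1, VEGFA, NDRG1, MIR210HG and ANKRD37. The 2 hypoxia response members not called were EGLN3 (0.19) and HIF1A (-0.39). The glycolysis member lower in RES-B was LDHB (-0.91, interval -0.93 to -0.89).

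NDRG1, a gene of cell differentiation and stress that is induced by hypoxia and by androgen, had 29.7, 31.0, 10.2 and 50.9 CPM. It was the member that passed 1.5-fold in opposite directions in the resistant lines, at -1.53 (interval -1.67 to -1.40) in RES-A and 0.78 (0.69 to 0.87) in RES-B. P4HA1, the prolyl hydroxylase of collagen, had 53.2, 54.7, 36.7 and 62.5 CPM, and PDK1 had 19.4, 14.4, 14.1 and 25.9 CPM. Both were higher in RES-B than RES-A, while neither passed 1.5-fold against LNCaP in either line. PGK1, phosphoglycerate kinase, had 421, 395, 329 and 625 CPM and likewise lay below LNCaP in RES-A and above it in RES-B.

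**Figure D2:**
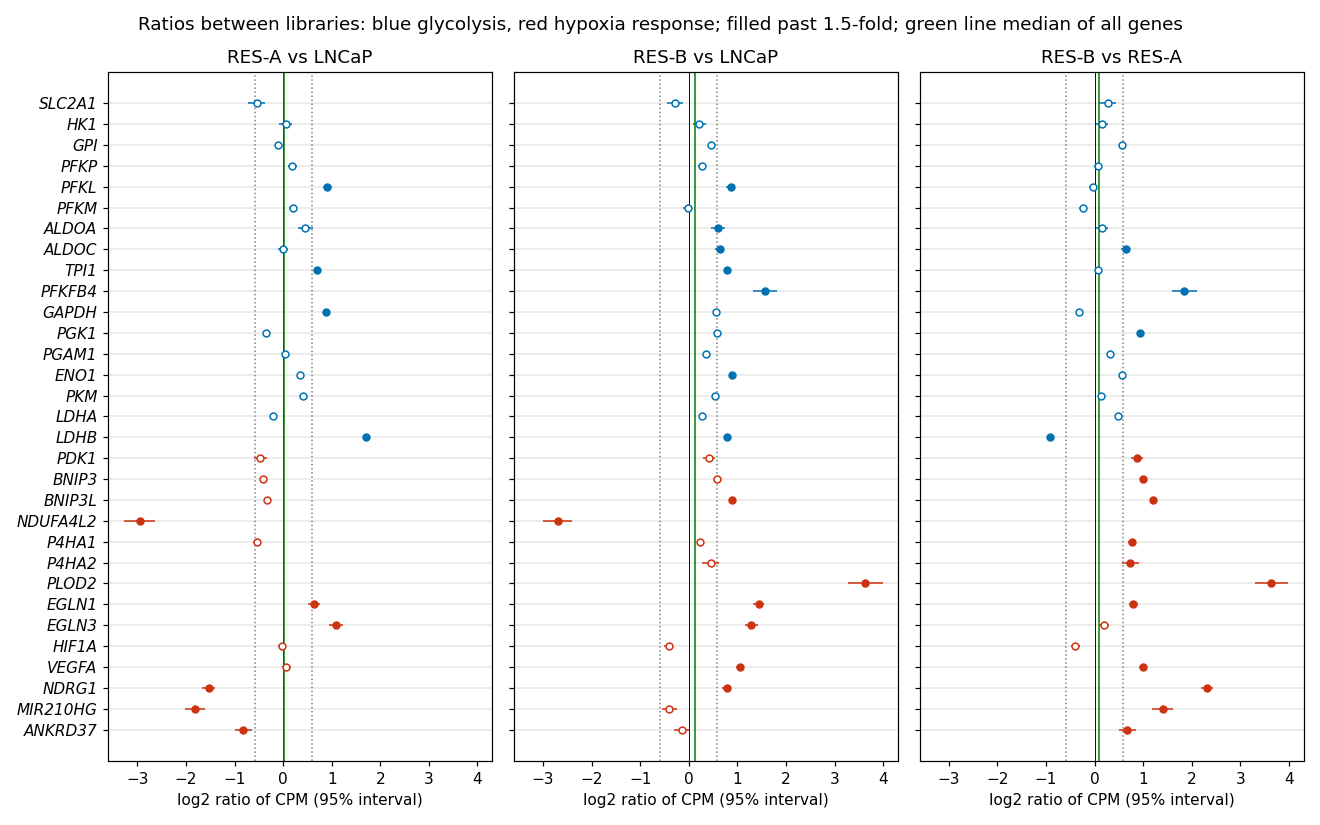
Log2 ratio of CPM for each comparison among LNCaP and the resistant lines, 1 row per member, with 95% counting intervals. Filled symbols passed 1.5-fold (dotted lines), blue symbols are glycolysis and red symbols hypoxia response members, and the green line is the median of all genes. In RES-A against LNCaP the red symbols lie mostly to the left, with a median of -0.44, and in RES-B against RES-A they lie to the right, with a median of 0.88.

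The remaining glycolysis members at 10 CPM or more passed 1.5-fold against LNCaP in no library. SLC2A1, the glucose transporter GLUT1, had 13.1, 10.3, 8.96 and 10.8 CPM, and HK1 had 17.4, 15.8, 18.1 and 20.2 CPM. GPI (127 to 187 CPM), PFKP (37.9 to 45.7 CPM), PFKM (41.8 to 49.3 CPM), PGAM1 (250 to 318 CPM), PKM (231 to 335 CPM) and LDHA (356 to 497 CPM) were highest in RES-B, except for PFKM, which was highest in RES-A. The levels of glycolytic genes with near copies elsewhere in the genome are uncertain, since a read that fits more than 1 gene is not counted. The same limit holds where exons of 2 genes overlap on one strand, as for ALDOA (12.7 to 19.4 CPM) with AC093512.2, for PGK1 with ATP7A (11.6 to 16.5 CPM), and for GPI, PFKP and PFKFB4 with genes listed at 0. Exons of NDUFA4L2 overlap SHMT2 (129 to 177 CPM) on the opposite strand, and the strand setting of the counting is not given in the sources used here.

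The shares of isozymes were compared within each library, which needs no scaling between libraries. LDHA held 57.1% of the UMIs of LDHA and LDHB in LNCaP (exact binomial interval 56.6 to 57.6) and 59.3% after 48 h of ENZ. In RES-A it held 26.1% and in RES-B 48.0%. The share of LDHA was thus lower in both resistant lines, and LDHB was the more abundant isozyme there. PFKL held 26.6%, 25.9%, 37.1% and 37.8% of the phosphofructokinase UMIs, with PFKM and PFKP making up the rest. ALDOA held 29.7%, 26.3%, 36.8% and 29.3% of the UMIs of ALDOA and ALDOC, read with the limit on ALDOA given above. HK2 held 22.5%, 18.2%, 22.3% and 27.1% of hexokinase UMIs, and PFKFB4 47.4%, 42.2%, 41.2% and 59.5% of those of PFKFB3 and PFKFB4. PDK4 had no UMI in any library, which in LNCaP allows a share of up to 0.132% of the PDK genes.

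**Figure D3:**
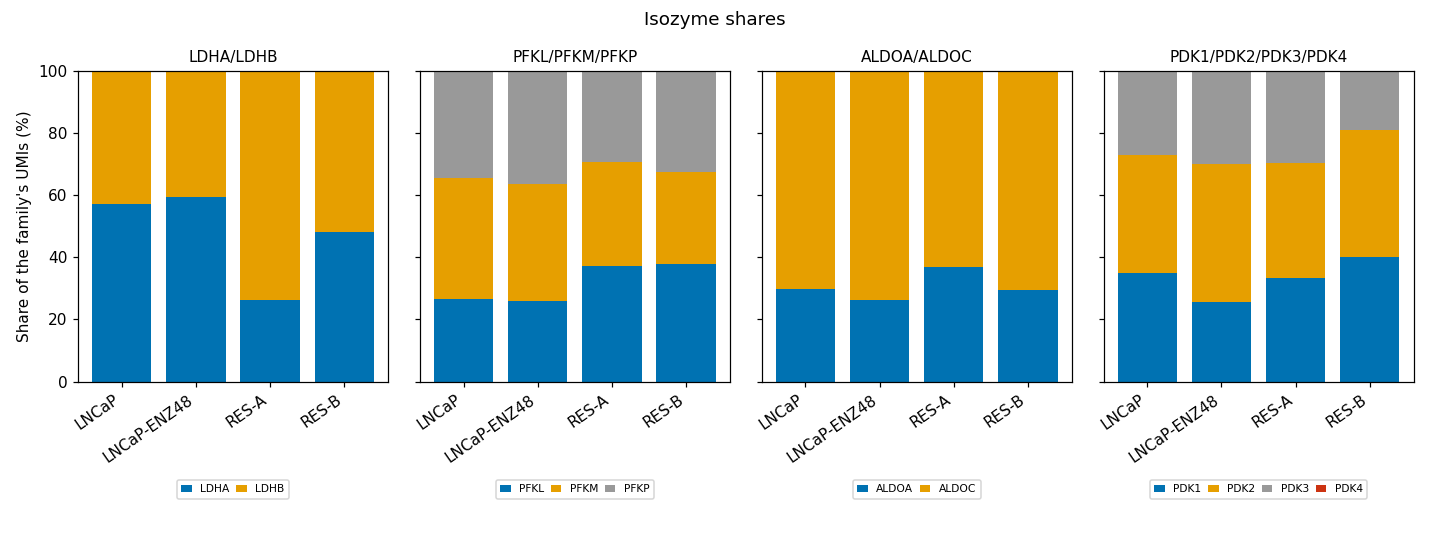
Share of each isozyme in the UMIs of its family, in percent, as stacked bars for the 4 libraries. The LDHA share is 57.1% in LNCaP and 26.1% in RES-A, with RES-B between them at 48.0%, and the PFKL share is 37.1% and 37.8% in RES-A and RES-B against 26.6% in LNCaP.

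Copy number of chromosome segments can move many neighbouring genes at once, so each member was set beside the median of up to 50 expressed protein-coding genes nearest to it, relative to all such genes. BNIP3L, at chr8:26383054-26505636 (GRCh38), stood against its neighbours in RES-B, where their median was -0.92 and its own relative log2 ratio 0.76. VEGFA, at chr6:43770184-43786487, stood among neighbours with a median of 0.75 in RES-B and 0.50 in RES-A, beside 0.93 and 0.05 for the gene itself. For EGLN1 the neighbours' medians were 0.55 in RES-B and 0.25 in RES-A, beside 1.32 and 0.62, and for PFKL 0.30 and 0.43, beside 0.74 and 0.88. The neighbours of LDHB were at 0.18 in RES-A and 0.14 in RES-B, and those of PLOD2 at 0.03 and 0.08. The part of chromosome segments in the members' levels was not tested.

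Other genes of the same pathways were read as lists. Of 25 further targets of hypoxia-inducible factor, 6 of the 15 at 10 CPM or more were higher in RES-B than in LNCaP and 0 lower, where 15.6% and 9.11% of all genes were called. In RES-A 3 of 12 were higher and 1 lower, where 12.9% and 12.7% were called, so these counts lay within 2 genes of the share over all genes. INSIG2, a regulator of sterol synthesis, had 15.2, 21.3, 33.2 and 134 CPM, a log2 ratio of 3.14 in RES-B. The others higher in RES-B were TMEM45A (2.14), ERO1A (1.32), AK4 (0.83), CA12 (0.81) and KDM3A (0.66), and those of RES-A were INSIG2 (1.13), CA12 (1.09) and ERO1A (0.76), with STC2 lower (-0.77). Compared with RES-A, RES-B was higher in 6 of 15 (INSIG2 by 2.02, TMEM45A by 1.20, KDM3A by 0.88, AK4 by 0.78, FUT11 by 0.74 and ANKZF1 by 0.69) and lower in 0, beside 12.9% and 6.71% of all genes. Of the 9 measured genes of the machinery that regulates the factor, 1 was called in each resistant line, CITED2, a competitor for the coactivators of the factor, with 31.7, 39.4, 103 and 68.2 CPM, a count near the share over all genes. After 48 h of ENZ only STC2 (-0.59) was called in these 2 lists.

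Of 12 measured genes of pyruvate oxidation, 1 was higher and 2 lower in RES-A, and 3 were higher and 2 lower in RES-B. MPC1 and MPC2, the 2 subunits of the carrier that brings pyruvate into mitochondria, differed in opposite directions. MPC1 had 24.7, 25.8, 51.7 and 53.0 CPM, and MPC2 598, 354, 221 and 283 CPM. MPC2 was already lower after 48 h of ENZ, with a log2 ratio of -0.76. DLAT was lower in both resistant lines (-0.68 in each), and DLD (0.71) and SLC16A1 (0.92), a lactate and pyruvate transporter, were higher in RES-B. Among 20 genes of the TCA cycle, 1 was higher and 2 lower in RES-A (SUCLG2 at -0.68 and SDHD at -0.60), and 3 were higher in RES-B, FH being higher in both (0.64 and 0.79) and IDH1 (0.79) and ACO1 (0.61) in RES-B. Against the 12.9% of all genes called higher and 12.7% lower in RES-A, and 15.6% and 9.11% in RES-B, the counts of both lists lay within 2 genes of the background, and nothing is read from them about these pathways. Of the pentose phosphate genes reported here, PGLS (0.92) was higher in RES-A and none in RES-B. Of the other glycolytic isozymes and shunt enzymes, 1 of 8 was higher and 0 lower in RES-A, and 3 of 9 were higher and 1 lower in RES-B, beside the same shares over all genes. PGM2 was higher in both lines (0.87 and 1.21), PGM1 (1.18) and SLC2A12 (0.68) in RES-B, and ENO2 was lower in RES-B (-1.15). In RES-B compared with RES-A, SLC2A12 (3.09), PGM1 (0.94), SLC2A8 (0.67), PDK2 (0.76), ACO1 (0.80), SUCLA2 (0.68) and RPE (0.62) were higher, and ENO2 (-1.49), PGLS (-0.73) and CITED2 (-0.60) lower. By list, 3 of 9 other glycolytic genes, 1 of 12 genes of pyruvate oxidation and 2 of 20 of the TCA cycle were higher. Of all genes 12.9% were called higher and 6.71% lower, and nothing is read from these counts about the pathways.

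To determine whether the members varied together from cell to cell within a library, each cell thinned to 5000 UMIs was scored by the sum of ln(UMIs + 1) over 15 hypoxia response members, HIF1A left out. BNIP3 had the highest mean of these 15 in every library (2.10, 2.26, 1.57 and 3.38 UMIs per thinned cell), so the score weighs it most. Each member was then compared between the 10% of cells with the highest score and all other cells, with that member left out of its own score. The cells of one library are not replicates, so these values describe 4 libraries. HIF1A, which is not scored, is left out of the counts by group that follow, and it passed 1.5-fold only in LNCaP-ENZ48 (log2 ratio 0.69). In LNCaP, 11 of 11 scored hypoxia response members at 10 CPM or more and 11 of 16 glycolysis members were higher by 1.5-fold or more in the top cells, beside 4.52% of 7349 other genes. In LNCaP-ENZ48 the counts were 12 of 12 and 13 of 16 beside 3.09%, in RES-A 7 of 8 and 7 of 15 beside 0.778%, and in RES-B 12 of 12 and 15 of 17 beside 6.25%. No member at 10 CPM or more was lower by 1.5-fold or more in the top cells of any library, where 10.7%, 5.06%, 0.996% and 6.3% of the other genes were in the order of the 4 libraries above.

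The largest contrast among members at 10 CPM or more was that of NDUFA4L2, which had 110 CPM in the top cells of LNCaP and 4.86 CPM in the others (log2 ratio 4.5), and 128 and 6.70 CPM in LNCaP-ENZ48. Its UMIs were held by few cells. In LNCaP 3.59% of thinned cells had a UMI (11.6% before thinning) with up to 13 UMIs in a cell, whereas in RES-A and RES-B 0.788% and 1.11% had one (2.08% and 2.56% before thinning) and no thinned cell had more than 1. The variance over the mean of its thinned UMIs was 4.74 in LNCaP and 5.02 in LNCaP-ENZ48, and 0.992 and 0.989 in RES-A and RES-B. Counting alone gives a value of 1. With no cell above 1 UMI and so low a mean, the value of the resistant lines lies near 1 by arithmetic. It therefore cannot show how their spread over cells compares with that of the LNCaP libraries. The lines hold no cell type that should lack the gene, so the share of cells with a UMI from free RNA was not measured.

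NDRG1 had 146 CPM in the top cells and 23.7 CPM in the others in LNCaP, and 144 and 21.9 CPM after 48 h of ENZ. The resistant lines had 34.6 and 7.59 CPM (RES-A) and 280 and 36.8 CPM (RES-B). Among the members at 10 CPM or more in the thinned cells of all 4 libraries, it was the only one whose ratio between top and other cells stayed above 4-fold in each. LDHA had log2 ratios of 2.29, 2.33, 1.44 and 2.01, and PGK1 of 2.65, 2.67, 0.88 and 2.05. Both enzymes were strongly graded with the score in LNCaP, LNCaP-ENZ48 and RES-B and less so in RES-A. PFKFB4 (6.62 to 57.6 CPM) and PLOD2 (13.1 to 88.2 CPM) could be read in RES-B, where their log2 ratios were 3.12 and 2.75.

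Some glycolysis members did not follow the score. LDHB had log2 ratios of -0.10, -0.10, -0.04 and -0.18, against 1.44 to 2.33 for LDHA. PFKM lay between -0.48 and 0.23, while PFKP, the platelet isozyme of the same enzyme, had 2.11, 2.12, 1.01 and 2.08. HK1 lay between -0.13 and 0.10 in LNCaP, LNCaP-ENZ48 and RES-A and at 0.82 in RES-B. HIF1A, whose product is set mainly by protein stability, had 0.42, 0.69, 0.16 and 0.19. The isozymes of one step thus differed in how they followed the score within the same cells.

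**Figure D4:**
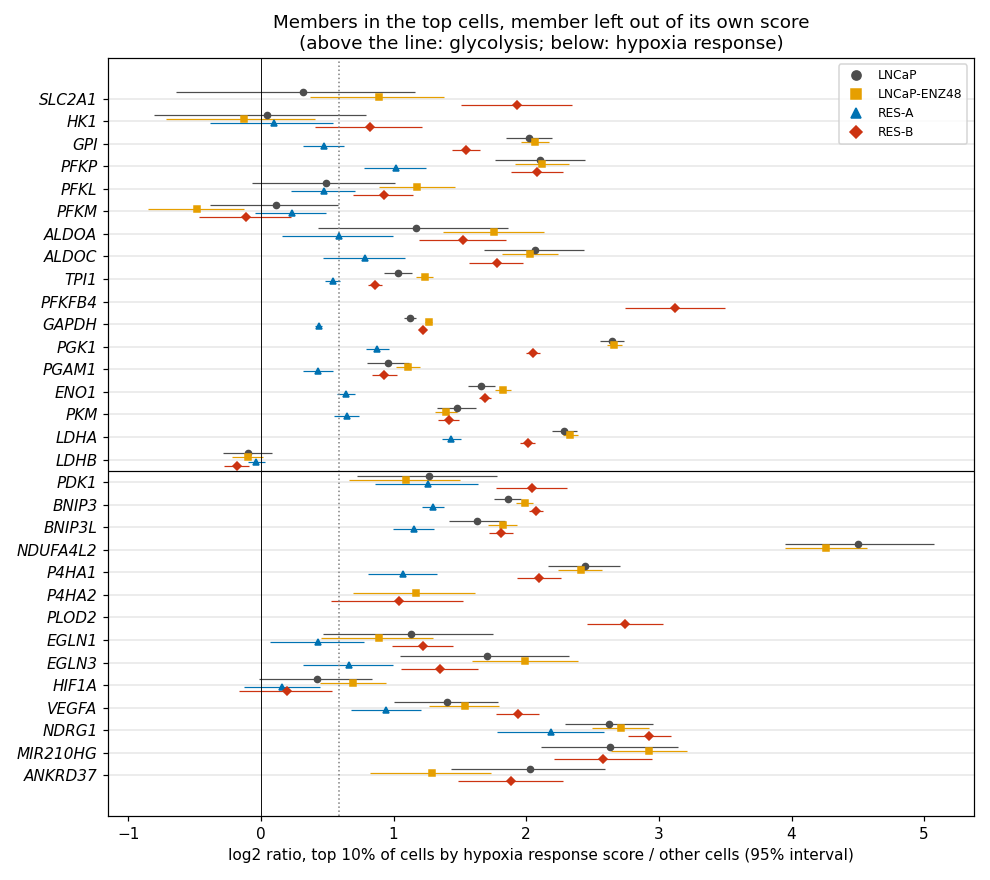
Log2 ratio between the top 10% of cells by hypoxia response score and all other cells for each member at 10 CPM or more, with 95% counting intervals, the dotted line marking 1.5-fold. RES-A (blue triangles) lies left of the other libraries for most members. LDHB lies near 0 in all 4 libraries, PFKM lies between -0.48 (LNCaP-ENZ48) and 0.23 (RES-A), and NDUFA4L2 reaches 4.5 in LNCaP.

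The top cells also differed in technical measures. Their median UMIs before thinning were 24586.5 against 27408 in LNCaP and 11115 against 13926 in LNCaP-ENZ48. They were 11470 against 12219.5 for RES-A and 9431.5 against 12589 for RES-B. The median share of mitochondrial UMIs was 7.5% against 9.89%, 7.56% against 9.50%, 10.0% against 10.4% and 8.06% against 12.4% in the same order, and more of the top cells were called G1 in every library (81.3% against 74.2% in RES-B). Among cells called G1, and with HIF1A counted, the members higher in the top cells were 23 of 28, 25 of 29, 16 of 25 and 27 of 30. Over all cells they were 22 of 28, 26 of 29, 14 of 24 and 27 of 30. The share of other genes higher in the top cells was not measured among cells called G1. The part of depth and of the mitochondrial share was not tested.

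The range of the score differed between libraries. The 90th percentile of LNCaP was a score of 3.87, which 9.76% of LNCaP cells exceeded, beside 12.1% of LNCaP-ENZ48 cells (exact binomial interval 11.1 to 13.1). For RES-A the share was 4.86% (4.25 to 5.52), and for RES-B 24.4% (23.0 to 25.7). RES-B had the most high-scoring cells and RES-A the fewest. Without thinning, when LNCaP cells were the deepest, the share was 8.45% for RES-B, 2.53% for LNCaP-ENZ48 and 0.175% for RES-A. The score is continuous, so the cells above the line are a range and not a type.

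**Figure D5:**
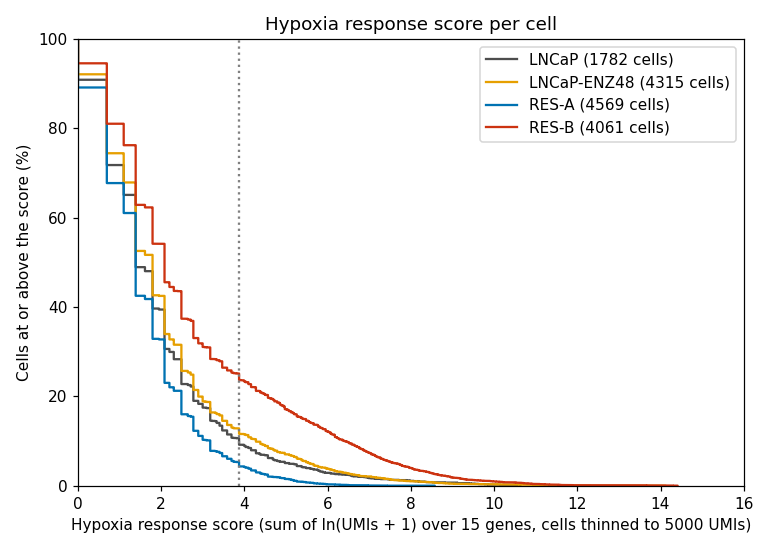
Percent of cells at or above each hypoxia response score, with 1 line per library, the score being the sum of ln(UMIs + 1) over 15 genes after thinning to 5000 UMIs. At the dotted line, the 90th percentile of LNCaP, 24.4% of RES-B cells lie above and 4.86% of RES-A cells.

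The difference between the resistant lines was not confined to the top 10% of cells of each library. In a comparison chosen after the data had been seen, the top 10% of each library was left out, and 10 of 13 hypoxia response members were still higher in RES-B than RES-A by 1.5-fold or more, with a median log2 ratio of 0.72. The cells left out could differ from member to member, since each scored member was again left out of its own score. For all genes the full score was used. Of 7945 genes at 10 CPM or more in the cells left by it 12.9% were higher in RES-B, and their median was 0.09. In these remaining cells NDRG1 differed by 2.28, PLOD2 by 3.91, BNIP3L by 1.16 and BNIP3 by 0.90. In the top cells alone the same genes differed by 3.02, 3.26, 1.82 and 1.68. The cut differed between the lines, the 90th percentile of the score being 6.40 in RES-B and 3.18 in RES-A. RES-B cells above the RES-A cut thus remained, and the lines were not compared at equal scores.

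Pairs of members were correlated over cells on ln(UMIs + 1), which is a description of sparse counts that share the depth of 5000 UMIs. The median Pearson r over pairs of hypoxia response members was 0.10, 0.06, 0.03 and 0.13 in the 4 libraries, and over glycolysis members 0.05, 0.06, 0.03 and 0.15, beside 0.00 over all gene pairs in each library. All pairs were of genes at 10 CPM or more and were not matched for level, on which r of sparse counts depends. The pairs also differed between libraries, with 28 pairs of hypoxia response members in RES-A and 66 in RES-B, and 105 and 136 glycolysis pairs. The highest pairs were PGK1 and LDHA in LNCaP (r = 0.51, n = 1782 cells) and LNCaP-ENZ48 (r = 0.52, n = 4315), LDHA and BNIP3 in RES-A (r = 0.35, n = 4569), and GAPDH and BNIP3 in RES-B (r = 0.67, n = 4061). The highest pair of each resistant line thus joined a glycolytic enzyme to a hypoxia response gene. This was not particular to these lines, since LDHA and BNIP3 had r = 0.46 in LNCaP and 0.48 in LNCaP-ENZ48. In RES-B the glycolytic pair of GAPDH and LDHA lay close to the highest, at r = 0.65.

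Outside the 36 members, the genes most like them were those with the highest lowest-of-4 ratio between top and other cells among 4173 genes at 20 CPM or more in every library. These were PIAS2, a SUMO ligase (lowest log2 ratio 0.87), the metallothioneins MT2A (0.76) and MT1X (0.73), ANKZF1 (0.64) and ZNF292 (0.59). PIAS2 had log2 ratios of 1.5, 1.26, 0.87 and 1.84 in the 4 libraries. MT2A had 2379 CPM in the top cells of LNCaP and 1140 CPM in the others, and 4616 and 1727 CPM in RES-B. ANKZF1 is also on the list of further targets of the factor, and MT2A and MT1X are close copies of one family, so their reads may be shared.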

How the data were processed

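Single-cell 3' RNA libraries of 4 groups, 1 library each, were made by the authors with 10x Genomics chemistry and processed with Cell Ranger 3.0.2 against GRCh38. The deposited values are raw UMI counts per gene and cell. Cells were kept within the study's limits on genes, UMIs and mitochondrial share (at least 16000 UMIs in LNCaP and 5000 elsewhere), and no doublet caller was run. Counts were summed per library and divided by the total to give CPM, with exact Poisson intervals for CPM, exact conditional binomial intervals for ratios and exact binomial intervals for shares, all at 95%. With 1 library per group no test was made, and called means past 1.5-fold at 10 CPM or more. Cells were thinned to 5000 UMIs with a fixed seed, and cell-cycle phase was called with scanpy 1.11.5. Of 33538 gene identifiers 33113 were found in GENCODE 44, which gave positions. Promoters came from RefSeq (GRCh38.p14), and BNIP3L, NDUFA4L2, VEGFA and NDRG1 had no entry used here. Members past 1.5-fold are named with their values, and 5 other genes by the likeness stated. edgeR 4.0.16 and DESeq2 1.42.0 gave alternative scalings only, and the scripts were tested on simulated data. The members, lists and comparisons were chosen with earlier results of these data known. 1 gene of the pentose phosphate list is not reported here.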

Additional observations from a re-analysis of the deposited data

Results flagged for a closer look

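NDRG1 differed in opposite directions in the resistant lines under the same comparison with LNCaP, with a log2 ratio of 0.78 in RES-B and -1.53 in RES-A. Each line is 1 library, and the difference was not tested.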

How the results depend on the processing

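With 1 library per group no replicate could be left out, and no paired analysis was possible because each group has 1 sample. No group median and no member ratio past 1.5-fold changed direction under any alternative run. Of the single ratios under the alternatives, 597 stayed within and 229 left their counting interval. The glycolysis members called higher in RES-B against LNCaP (7) were 4 with TMM, with median-of-ratios size factors and at a minimum of 50 CPM. Of all genes 11.6%, 11.7% and 16.9% were called higher under these settings. Those called higher in RES-B against RES-A (3) were 5 in cells called G1 and with the mean of single-cell CPM, and 1 with TMM, with size factors and at 50 CPM. With TMM 1 glycolysis member was called lower in RES-A, and the glycolysis median after 48 h of ENZ (0.10) was 0.19 with TMM and 0.20 with size factors. At 1 CPM, 1 hypoxia response member was called higher after 48 h of ENZ. At 50 CPM, 3 to 5 hypoxia response members were left, of which 0 were called higher and 0 lower in RES-A, 3 higher and 0 lower in RES-B, and 5 higher in RES-B against RES-A. Without thinning, 8.45% of cells in RES-B, 2.53% in LNCaP-ENZ48 and 0.175% in RES-A lay above the 90th percentile of LNCaP. In the comparison added after the data were seen, without the top-scoring cells, the glycolysis median of RES-B against RES-A was 0.068. The other 255 alternatives of counts, medians and shares stayed within 1.5 times or within their interval. Depth limits HK2, PFKFB3, SLC16A3, CA9 and ADM, which stayed under 10 CPM.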
